A study of Gallus gallus with 6 samples.

Results

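Aminoacyl-tRNA synthetases join each amino acid to its tRNA, and every ribosome depends on the charged tRNAs they make. Cells keep a set for the cytosol and a set for the mitochondrion, nearly all encoded by separate nuclear genes, with names of the mitochondrial enzymes ending in 2. In vertebrates several cytosolic enzymes sit together in the multisynthetase complex, held by scaffold proteins such as AIMP1 and AIMP2. In mammals the genes of many cytosolic enzymes are known targets of the transcription factor ATF4, which is translated when amino acids run short or the endoplasmic reticulum is stressed.

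The genes described here are 37 in number: 20 of cytosolic enzymes, 15 of mitochondrial enzymes and the 2 scaffold genes. They were found by symbol in the deposited tables, where 33 of the 37 had a row among 17108 genes. VARS, SARS2, VARS2 and WARS2 matched no row and are not analysed here. FARSA, the alpha subunit of the phenylalanine enzyme, and MARS, the methionine enzyme, were listed at 0 in all 6 libraries although both are general housekeeping genes. Of the 17108 genes 4849 were at 0 in every library, and whether a 0 means no expression was not tested. The other 31 passed the count filter, with no library below 133 counts for any of them, so that none passed through 1 genotype alone.

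RNA was sequenced from DT40, a B cell line of the chicken, in 3 libraries of wild type cells (Clone 18) and 3 of Bach2-/- cells, which lack the B cell repressor Bach2. The labels report separate cultures for the libraries but no count of knockout clones, and the knockout columns carry the name Bach2ko1, so a difference of genotype and one of a single clone cannot be told apart. All cells grew at 40 °C in RPMI medium with 10% fetal calf serum and 1% chicken serum, and no group received a treatment. Total counts ran from 8999010 to 20647281 per library. BACH2 itself had 135, 87 and 54 counts in wild type replicates 1, 2 and 3 and 34, 61 and 50 in the knockout (knockout over wild type, log2 -1.16 ± 0.20, SE; edgeR adjusted p = 0.00144), so reads remained on its gene model. All 9 B cell marker genes were detected, of which 5 were lower in the knockout (PAX5, EBF1, BTK, CD79B and POU2AF1), 1 was higher (IGJ) and 3 did not pass, with a median log2 fold change of -0.23. That is 55.6% lower and 11.1% higher, beside 18.0% and 12.7% of all tested genes. Of the T cell markers CD4, CD28 and IL7R were at 0, and the summed T cell list ranged over the wild type libraries from 162 to 202 RPKM and over the knockout libraries from 111 to 138. All 4 tested T cell rows were lower, with a median log2 fold change of -2.68, beside 18.0% lower among all tested genes. The summed macrophage and granulocyte list ranged from 39.6 to 50.6 RPKM against 16.0 to 20.0, with MARCO and C1QA at 0. The 2 tested rows of that list were both lower, with a median of -1.25. The erythroid list did not exceed 0.280 RPKM in any library, with HBAA and HBAD at 0, and the fibroblast list did not exceed 0.897. The T cell and the macrophage and granulocyte sums were lower in every knockout library than in every wild type library, and the part of these marker changes, those of the B cell list included, in the results below was not tested.

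In the knockout 11 of the 31 tested genes rose, 5 fell and 15 did not pass, at an adjusted p under 0.05 (quasi-likelihood test of edgeR, adjusted over 9159 genes). Thus 35.5% of the members rose and 16.1% fell, beside 12.7% and 18.0% of all tested genes. For 18 members (58.1%) all libraries of one genotype lay above all of the other, 12 of them higher and 6 lower in the knockout, beside 46.2% of all tested genes (21.4% higher and 24.8% lower). The changes were small, from a log2 fold change (knockout over wild type) of -0.62 for TARS2 to 0.55 for WARS. Of 17 cytosolic enzymes 5 rose and 1 fell, with a median log2 fold change of 0.15. Of 12 mitochondrial enzymes 4 rose and 4 fell, with a median of -0.053, and both scaffold genes rose. The median of all tested genes was -0.0014. The members were chosen with earlier results known, so that these counts and medians are descriptions and no test was made of either class or of the difference between them.

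These counts depended on single libraries. The number of higher cytosolic enzymes was 2, 4 and 3 with wild type replicate 1, 2 or 3 left out, and 9, 2 and 4 when the omitted library was knockout replicate 1, 2 or 3. The fallen cytosolic enzyme, EPRS, lost its call when replicate 2 or 3 of either genotype was left out, and a second one joined it without knockout replicate 1. The number of higher mitochondrial enzymes was 0, 2 and 2 with the wild type libraries left out in the same order, and 3, 2 and 4 with those of the knockout. The number of lower mitochondrial enzymes was 5 without wild type replicate 1 and 4 in each of the other 5 cases. Without knockout replicate 2 the cytosolic median was 0.091, and the mitochondrial median was 0.010 without wild type replicate 2 and -0.12 without wild type replicate 3.

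**Figure D1:**
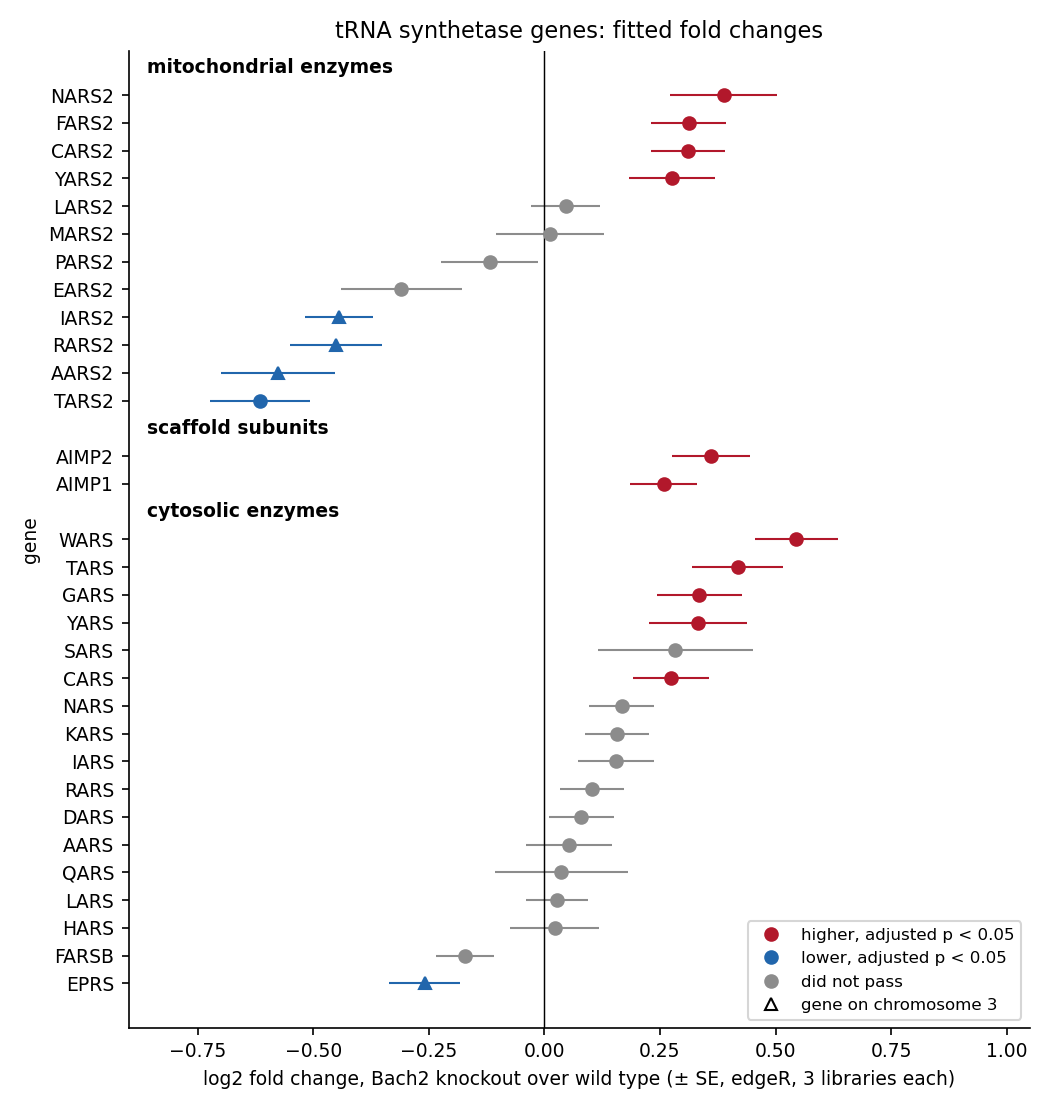
Fitted log2 fold change of each of the 31 tested genes, knockout over wild type, with the SE of the edgeR fit from 3 libraries of each genotype; red and blue mark genes past the threshold and triangles mark genes on chromosome 3. All 4 triangles lie to the left of 0, and 15 of the 17 cytosolic enzymes lie to its right, 5 of them past the threshold. The median of all tested genes was -0.0014.

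Among the cytosolic enzymes the level per gene length, in RPKM (reads per kilobase of gene, scaled by library size), spanned from CARS at 20.0 ± 1.07 to GARS at 264 ± 26.4 in wild type (SD, n = 3 each). The 3 most abundant were GARS, the glycine enzyme that also serves mitochondria, SARS, the serine enzyme, and FARSB, the beta subunit of the phenylalanine enzyme. Among the wild type means of all tested genes, GARS stood at the 96.6th percentile, SARS at the 95.9th and FARSB at the 95.2nd. The mitochondrial enzymes were lower, with wild type means from 6.73 RPKM for NARS2 to 31.8 for IARS2. Their median of 21.4 RPKM compares with 100.5 for the cytosolic enzymes. These levels depend on reading the values as RPKM and on the authors' gene lengths, which the sources used here do not give.

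WARS, the tryptophan enzyme, showed the largest increase of the members. It had 66.3, 76.4 and 75.6 RPKM in wild type replicates 1, 2 and 3 and 98.7, 119 and 107 in knockout replicates 1, 2 and 3. The genotypes did not overlap, and the fit gave a log2 fold change of 0.55 ± 0.090 (SE; adjusted p of edgeR, 0.00112). TARS, the threonine enzyme, had 53.1, 67.2 and 68.2 RPKM in wild type and 81.2, 88.1 and 87.8 in the knockout. Again every knockout library lay above every wild type library (0.42 ± 0.098, adjusted p = 0.00849). Both genes kept their calls in each of the 14 alternative analyses that apply to every gene.

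GARS rose, with a log2 fold change of 0.34 ± 0.091 (SE, edgeR adjusted p = 0.0182). Its values were 233, 277 and 281 RPKM in wild type and 308, 351 and 361 in the knockout, with no overlap. Its call was lost without wild type replicate 1 (adjusted p = 0.0799) and without knockout replicate 2 (0.0664). YARS, the tyrosine enzyme, had 108, 129 and 117 RPKM in wild type and 128, 159 and 169 in the knockout. Here the genotypes overlapped, because knockout replicate 1 lay just below wild type replicate 2. The log2 fold change of YARS was 0.33 ± 0.11 (adjusted p = 0.0353), and its adjusted p was 0.155 and 0.101 with wild type replicate 1 or 3 left out, and 0.114 and 0.0653 with knockout replicate 2 or 3 left out. CARS, the cysteine enzyme, rose from 18.8, 20.6 and 20.7 RPKM to 26.7, 24.5 and 22.9 without overlap (0.27 ± 0.082, adjusted p = 0.0281). Its adjusted p was 0.119, 0.0661 and 0.0622 with wild type replicate 1, 2 or 3 left out, and 0.0739 when knockout replicate 2 was.

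EPRS, a fused enzyme for glutamate and proline, was the cytosolic gene that fell. It had 92.7, 104 and 105 RPKM in wild type and 91.7, 85.4 and 80.5 in the knockout. The genotypes were separated only by the small gap between replicate 1 of each (-0.26 ± 0.077, edgeR adjusted p = 0.0270). Its adjusted p was 0.117 and 0.125 with wild type replicate 2 or 3 left out, 0.0844 and 0.1004 with knockout replicate 2 or 3 left out, and 0.0554 with limma on log2(RPKM + 1).

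The other 11 cytosolic enzymes did not pass. FARSB had 194, 197 and 205 RPKM in wild type and 182, 181 and 177 in the knockout. Its genotypes did not overlap (-0.17 ± 0.062, edgeR adjusted p = 0.0577), and without knockout replicate 1 its adjusted p was 0.0179. SARS, with 202, 242 and 224 RPKM in wild type and 190, 305 and 335 in the knockout, had the widest spread of knockout values relative to the mean among the members (0.28 ± 0.17, adjusted p = 0.230). NARS and KARS, for asparagine and lysine, had log2 fold changes of 0.17 and 0.16 without overlap of the genotypes (adjusted p = 0.0948 and 0.114); with library totals in place of TMM, NARS passed (0.0437). The fold changes of IARS (isoleucine), RARS (arginine), DARS (aspartate), AARS (alanine), QARS (glutamine), LARS (leucine) and HARS (histidine) ran from 0.022 for HARS to 0.15 for IARS, and the genotypes overlapped for each of these 7.

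By membership of the multisynthetase complex, the cytosolic genes divided as follows. Of 10 tested enzymes outside it, 5 rose (WARS, TARS, GARS, YARS and CARS), with a median log2 fold change of 0.28, beside 12.7% higher among all tested genes. Of 7 tested enzymes inside it (EPRS, IARS, LARS, QARS, RARS, KARS and DARS), 0 rose and EPRS fell, with a median of 0.079. That is 14.3% lower, beside 18.0% of all tested genes. In edgeR's test, KARS alone of these 7 had an unadjusted p under 0.05 and a positive fold change, and limma and DESeq2 called 0 of them higher. Without knockout replicate 1, however, 2 of the 7 were called higher, IARS and QARS, and 7 of the 10 outside. Outside the complex 2 remained called higher, WARS and TARS, without wild type replicate 1 and likewise without knockout replicate 2. With 7 genes, a count of 0 is close to the share of all tested genes. The difference between these groups was not tested. EPRS is the only tested enzyme of the complex on chromosome 3, where 70.3% of tested genes were called lower. Fitted with the median change of chromosome 3 as an offset, EPRS had a log2 fold change of 0.19 and did not pass (edgeR adjusted p = 0.0889).

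Both scaffold genes among the members, AIMP1 and AIMP2, rose. A further subunit of the complex, EEF1E1, did not pass (0.20, edgeR adjusted p = 0.0843). AIMP2 had 97.2, 86.6 and 98.3 RPKM in wild type and 137, 115 and 119 in the knockout. AIMP1 had 104, 110 and 97.6 RPKM in wild type and 128, 131 and 121 in the knockout. For both genes every knockout library exceeded every wild type library, with log2 fold changes of 0.36 ± 0.085 for AIMP2 (SE, edgeR adjusted p = 0.00872) and 0.26 ± 0.072 for AIMP1 (adjusted p = 0.0206). AIMP2 lost its call without wild type replicate 2 (adjusted p = 0.0538). AIMP1 lost it when wild type replicate 1 (0.071) or 3 (0.101) or knockout replicate 2 (0.0869) was left out.

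**Figure D2:**
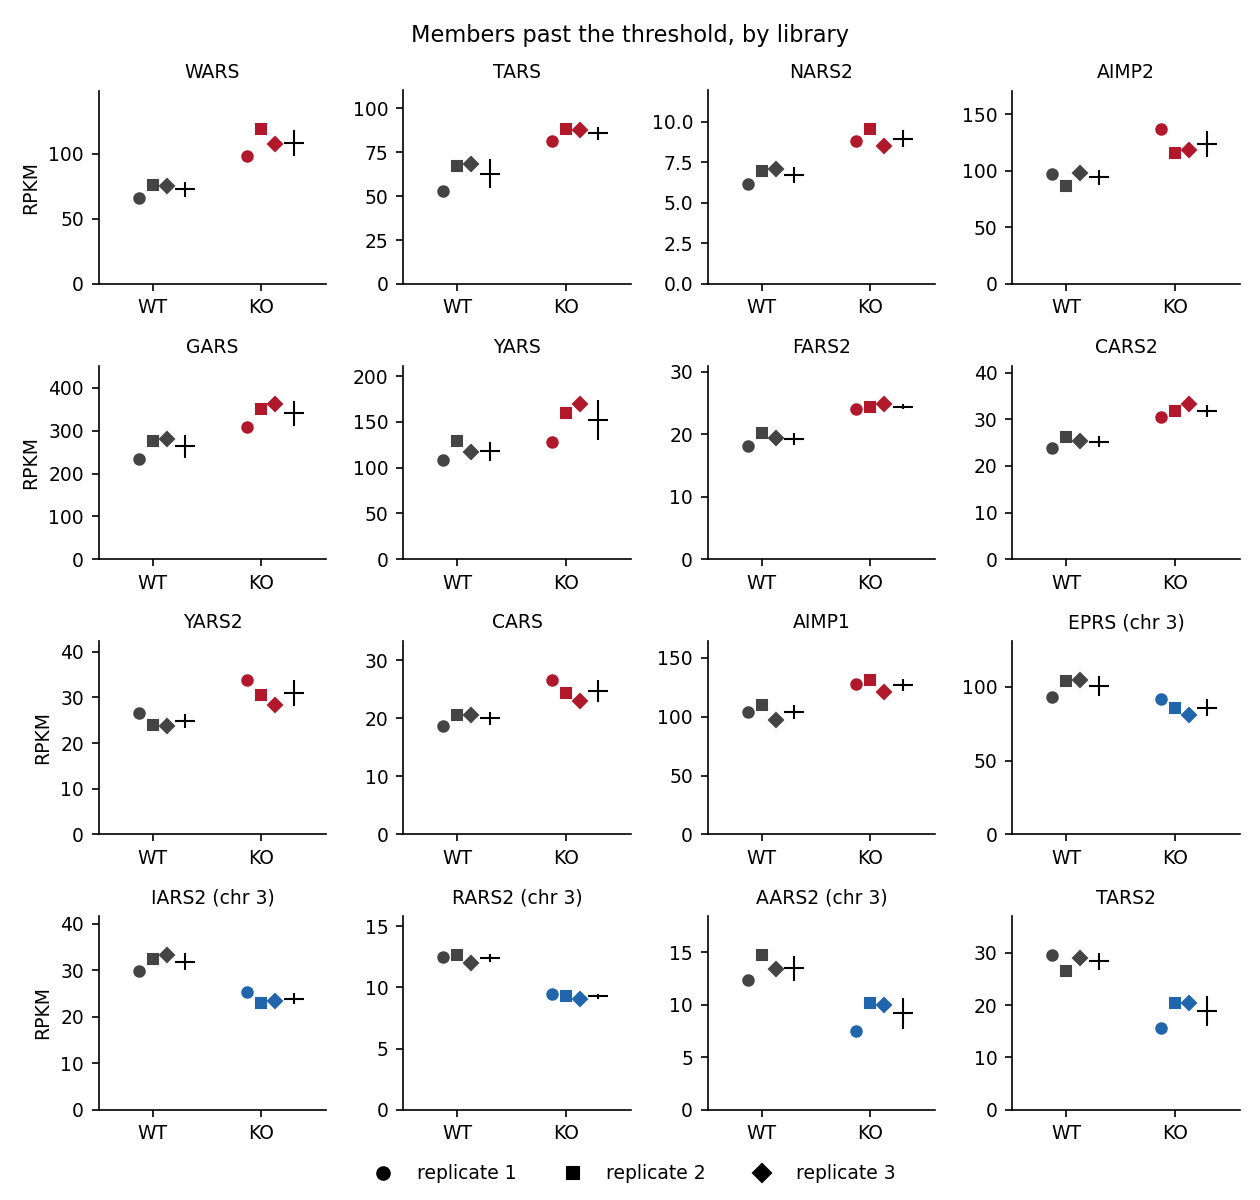
RPKM of the 16 genes past the threshold in each library, with a panel per gene; WT is wild type, KO is Bach2 knockout, symbols mark replicates 1 to 3, and the bar beside them is the mean ± SD of 3 libraries. In each panel except YARS the points of the genotypes do not overlap.

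Of the mitochondrial enzymes, 4 rose. NARS2, for asparagine, was the least abundant member, with 6.17, 6.94 and 7.06 RPKM in wild type and 8.79, 9.54 and 8.51 in the knockout. FARS2, for phenylalanine, had 18.2, 20.2 and 19.4 RPKM in wild type and 24.0, 24.4 and 24.8 in the knockout. CARS2, for cysteine, had 23.8, 26.1 and 25.4 RPKM in wild type and 30.5, 31.7 and 33.2 in the knockout. The genotypes did not overlap for any of these 3 genes. YARS2, for tyrosine, had 26.7, 24.0 and 23.8 RPKM in wild type and 33.9, 30.5 and 28.3 in the knockout, again without overlap. The log2 fold changes were 0.39 ± 0.12 for NARS2, 0.31 ± 0.081 for FARS2, 0.31 ± 0.080 for CARS2 and 0.28 ± 0.093 for YARS2 (SE; edgeR adjusted p = 0.0275, 0.0142, 0.0141 and 0.0430).

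None of these 4 increases kept its call in all 6 analyses that left out a library. FARS2 and CARS2 lost it without wild type replicate 1 (adjusted p = 0.0641 and 0.0655). NARS2 had an adjusted p of 0.108, 0.0671 and 0.0551 with wild type replicate 1, 2 or 3 left out, and 0.107 when knockout replicate 2 was. YARS2 had 0.0585, 0.145 and 0.138 in the same 3 cases, and 0.0621 and 0.0962 when knockout replicate 1 or 2 was left out.

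Of the mitochondrial enzymes 4 fell. TARS2, for threonine, had 29.6, 26.6 and 29.1 RPKM in wild type and 15.7, 20.5 and 20.5 in the knockout. That is a log2 fold change of -0.62 ± 0.11 (SE; adjusted p of edgeR, 0.00166). AARS2, for alanine, had 12.4, 14.7 and 13.4 RPKM in wild type and 7.49, 10.2 and 9.93 in the knockout (-0.58 ± 0.12, adjusted p = 0.00532). For both genes knockout replicate 1 was the lowest library, and the genotypes did not overlap. IARS2, for isoleucine, had 29.8, 32.4 and 33.3 RPKM in wild type and 25.2, 23.0 and 23.4 in the knockout. RARS2, for arginine, had 12.5, 12.7 and 12.01 RPKM in wild type and 9.47, 9.27 and 9.07 in the knockout. Their log2 fold changes were -0.45 ± 0.074 and -0.45 ± 0.10 (adjusted p = 0.00117 and 0.00631). All 4 kept their calls in each of the 14 alternative analyses that apply to every gene.

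EARS2 (glutamate), PARS2 (proline), MARS2 (methionine) and LARS2 (leucine) did not pass. EARS2 had 10.0, 12.6 and 12.7 RPKM in wild type and 8.48, 10.5 and 9.86 in the knockout, with wild type replicate 1 inside the knockout range (-0.31 ± 0.13, edgeR adjusted p = 0.0965). Without wild type replicate 1 its log2 fold change was -0.43 (adjusted p = 0.0469). The log2 fold changes of PARS2, MARS2 and LARS2 were -0.12, 0.012 and 0.046, and their genotypes overlapped.

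The members that fell were mostly genes of 1 chromosome. In the gene table of the assembly GRCg7b, which is not the build galGal4 named for the counts, EPRS, IARS2, AARS2 and RARS2 are on chromosome 3, and no other tested member is. Most tested genes of chromosome 3 were lower in the knockout, with a median log2 fold change of -0.45 over 688 genes, of which 70.3% were called lower and 1.16% higher. All 4 members there fell. Taken relative to that median, IARS2 stood at 0.0075 and RARS2 at 0.0012 (edgeR adjusted p = 0.951 and 0.995). AARS2 stood at -0.12 (adjusted p = 0.493) and EPRS at 0.19 (adjusted p = 0.0889). None of the 4 passed the threshold relative to the median. EPRS and IARS2 have 1 protein-coding gene between them in that table, and the difference between them was not tested. A lower expression of each gene and a change shared by most genes of the chromosome cannot be told apart for these 4.

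Away from chromosome 3 more members rose than fell. Of 16 cytosolic enzymes there 5 rose and 0 fell at an adjusted p under 0.05, while FARSB was lower at an unadjusted p under 0.05 and was called lower by edgeR when the fit held only genes averaging 1 RPKM or more (adjusted p = 0.0464). Of 9 mitochondrial enzymes there 4 rose and 1, TARS2, fell. The background among 7641 genes placed on other chromosomes was 14.1% higher and 13.5% lower. The median log2 fold change was 0.16 for these cytosolic and 0.046 for these mitochondrial enzymes, beside 0.027 for those 7641 genes. The counts away from chromosome 3 depended on single libraries. Without wild type replicate 1, WARS and TARS were the only enzymes there called higher, as was the scaffold gene AIMP2 (edgeR adjusted p = 0.0106, 0.0256 and 0.0327). TARS2 and EARS2 were then called lower (adjusted p = 0.0155 and 0.0469).

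The balance of cytosolic and mitochondrial enzymes for the same amino acid was compared as the ratio of their RPKM within each library, which does not depend on library scaling. There were 11 pairs, of which 2 share EPRS. TARS over TARS2 was 1.79, 2.53 and 2.35 in wild type and 5.18, 4.30 and 4.29 in the knockout, the largest shift, at 1.06 on the log2 scale. AARS over AARS2 was 10.2, 9.29 and 10.2 in wild type and 16.1, 14.6 and 15.4 in the knockout. RARS over RARS2 was 8.25, 8.65 and 9.46 in wild type and 12.9, 13.1 and 12.6 in the knockout. IARS over IARS2 was 1.31, 1.27 and 1.28 in wild type and 1.66, 2.21 and 1.996 in the knockout. In these 4 pairs every knockout ratio exceeded every wild type ratio, and in 3 of them the mitochondrial gene is on chromosome 3.

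In 2 pairs the knockout ratios were all lower. FARSB over FARS2 was 10.7, 9.74 and 10.6 in wild type and 7.59, 7.43 and 7.16 in the knockout. NARS over NARS2 was 15.4, 14.8 and 14.6 in wild type and 13.3, 11.4 and 14.1 in the knockout. For each of these 6 pairs the exact two-sided permutation p was 0.1, the smallest that 3 libraries against 3 can give, and 0.183 after Benjamini-Hochberg adjustment over the 11 pairs. For cysteine, leucine, tyrosine, glutamate and proline the ratios overlapped. In the pairs for glutamate and proline the cytosolic gene, EPRS, is on chromosome 3. How often the ratios of other pairs of genes separate the genotypes was not computed. CARS over CARS2 was below 1 in every library, with a wild type mean of 0.795 and a knockout mean of 0.779, so that here the mitochondrial gene had the higher level per length. Both genes of the cysteine pair and both of the tyrosine pair rose, and the ratio changed by -0.036 and 0.045 on the log2 scale.

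**Figure D3:**
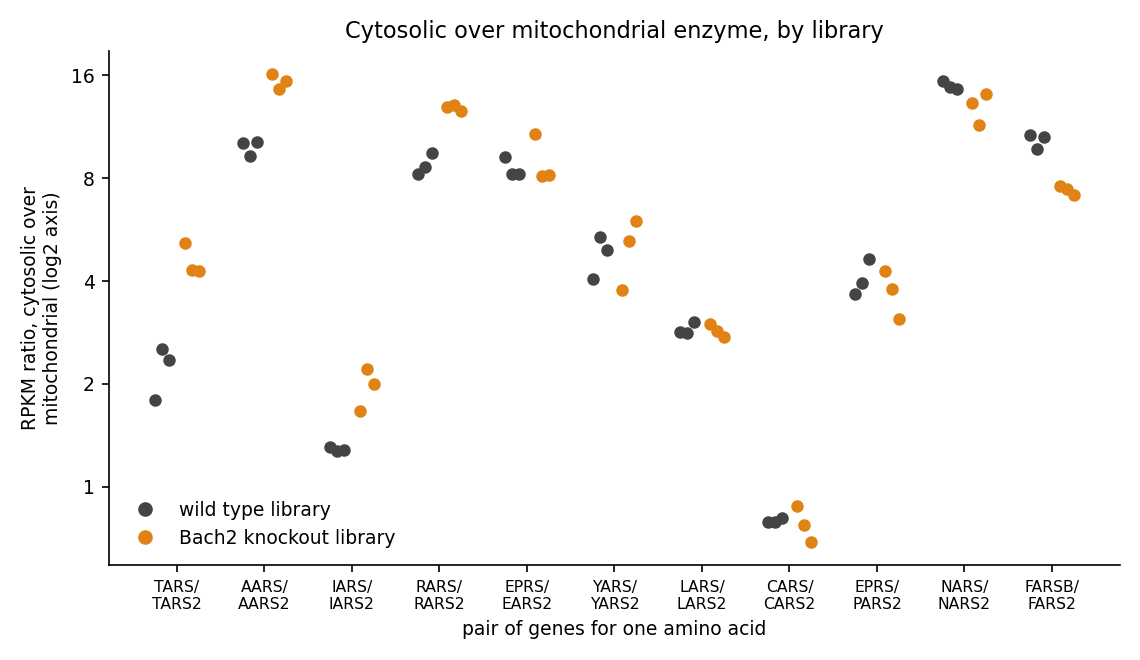
Ratio of the RPKM of the cytosolic gene to that of the mitochondrial gene for the same amino acid, on a log2 axis, with a point for each library and grey for wild type and orange for the knockout. From the left, the ratios for threonine, alanine, isoleucine and arginine are higher in all knockout libraries, and at the right those of asparagine and phenylalanine are lower.

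Knockout replicate 1 stood apart from the other knockout libraries for some cytosolic enzymes. It was the lowest knockout library for 9 of 17 cytosolic (52.9%) and 8 of 12 mitochondrial enzymes (66.7%), beside 42.7% of all tested genes. Against the wild type mean of CPM (counts scaled to the TMM-adjusted library size), SARS was at -0.26, 0.42 and 0.56 on the log2 scale in knockout replicates 1, 2 and 3, and QARS was at -0.40, 0.092 and 0.32. HARS was at -0.22, 0.060 and 0.19 and AARS at -0.17, 0.13 and 0.17. These 4 of 17 cytosolic enzymes (23.5%) lay below the wild type mean in replicate 1 and above it in replicates 2 and 3, as did 8.93% of all tested genes. Without knockout replicate 1 the log2 fold changes were 0.50 for SARS, 0.21 for QARS, 0.16 for AARS and 0.23 for IARS, each past the threshold (edgeR adjusted p = 4.63e-05, 0.0299, 0.0437 and 0.00909). IARS is not among the 4 genes of that pattern, and HARS, which is, stood at 0.13 and did not pass (adjusted p = 0.109). KARS and CARS had the opposite order, with knockout replicate 1 the highest library (0.26 and 0.38). For RARS it was also the highest library, though close to knockout replicate 2 (0.134 and 0.131). For EPRS and FARSB it was the highest of the knockout libraries (-0.17 and -0.16). Wild type replicate 1 was the lowest wild type library for 16 of the 17 cytosolic enzymes (94.1%), where 36.3% of all tested genes had it lowest. The summed cytosolic level was 1795, 2002 and 1986 RPKM in wild type and 1997, 2274 and 2324 in the knockout, so that wild type replicate 2 lay just above knockout replicate 1. The mitochondrial sum was 231, 244 and 234 RPKM in wild type and 223, 232 and 234 in the knockout, with overlap.

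**Figure D4:**
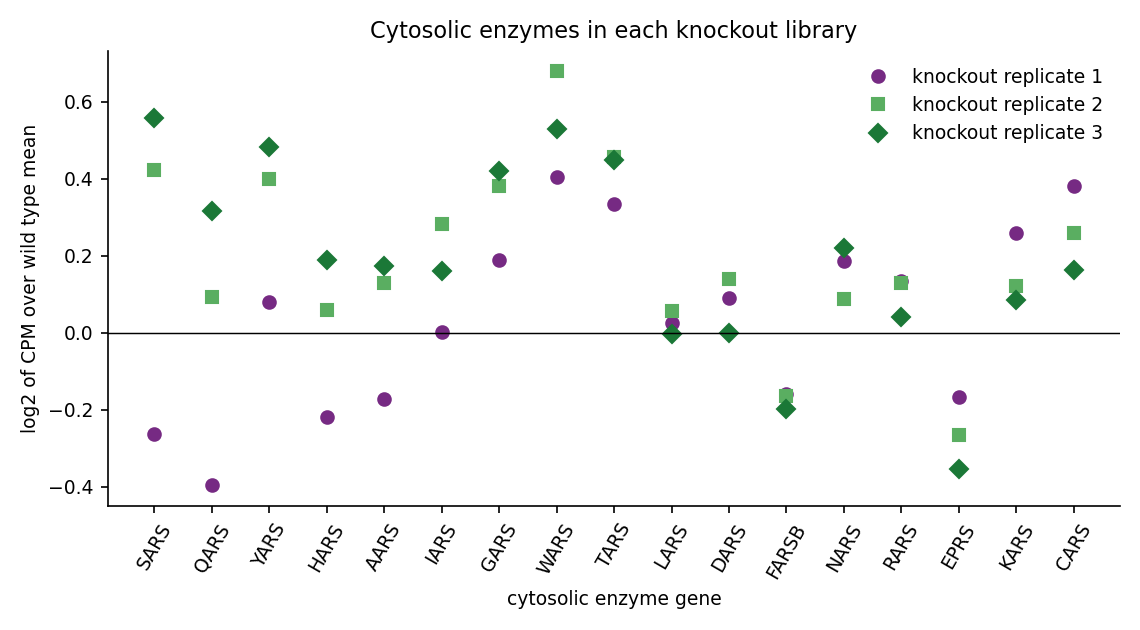
Log2 of the CPM of each of the 17 tested cytosolic enzymes in knockout replicates 1, 2 and 3 over the wild type mean. At the left SARS, QARS, HARS and AARS are below 0 in knockout replicate 1 and above it in replicates 2 and 3, while WARS and TARS are above 0 in all 3.

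The list of the amino acid response, with ATF4, its upstream kinase pathway and known mammalian ATF4 targets, held the larger changes. Its 53 entries matched 41 rows, of which 35 were tested. Entries such as DDIT3, ATF5 and PPP1R15A matched no row, and TRIB3, SLC7A5 and a row of ALDH1L2 were at 0 in every library. Of 35 tested rows of this list 19 rose, 3 fell and 13 did not pass, with a median log2 fold change of 0.39. That is 54.3% higher and 8.57% lower, beside 12.7% and 18.0% of all tested genes. ATF4 itself had 576, 658 and 676 RPKM in wild type and 767, 854 and 873 in the knockout (0.35 ± 0.083, SE; edgeR adjusted p = 0.00866), without overlap. ASNS, the asparagine synthetase and a standard readout of this response, had 177, 246 and 238 RPKM in wild type and 355, 412 and 383 in the knockout (0.77 ± 0.12, adjusted p = 0.000701). ATF4 and ASNS are named here as regulator and readout, a choice made with their values known. Whether the activity of ATF4 changed, or is linked to the levels of the synthetase genes, was not tested.

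The 6 largest increases past the threshold in that list were those of SLC7A11, PSPH, ATF3, STC2, GPT2 and CHAC1. CEBPB, a transcription factor, had a fitted value of 1.83 ± 0.72 and did not pass (edgeR adjusted p = 0.0781). SLC7A11, a subunit of the cystine importer, had 0.797, 1.34 and 1.26 RPKM in wild type and 7.14, 11.4 and 12.7 in the knockout (3.23 ± 0.25, adjusted p = 6.38e-06). PSPH, the last enzyme of serine synthesis, had 67.1, 82.6 and 79.2 RPKM in wild type and 182, 265 and 287 in the knockout (1.66 ± 0.15, adjusted p = 2.58e-05). CHAC1, which degrades glutathione, had 35.2, 57.5 and 54.6 RPKM in wild type and 64.3, 140 and 153 in the knockout (1.26 ± 0.28, adjusted p = 0.00619). For these 3 genes all knockout libraries lay above all wild type libraries, and replicate 1 was the lowest library of each genotype. ATF3, a stress transcription factor on chromosome 3, rose by 1.49 ± 0.36, STC2 (stanniocalcin 2) by 1.30 ± 0.18 and GPT2, a mitochondrial alanine transaminase, by 1.26 ± 0.26 on the log2 scale. ATF3 lost its call without wild type replicate 1 (adjusted p = 0.069).

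The 3 genes of the list that fell were VLDLR, MTHFD1L and GCN1. VLDLR, a lipoprotein receptor, had few reads, with 15, 16 and 9 counts in wild type and 0, 4 and 4 in the knockout. MTHFD1L, a mitochondrial enzyme of folate metabolism on chromosome 3, had 150.5, 157 and 160 RPKM in wild type and 98.7, 108 and 105 in the knockout (-0.61 ± 0.067, edgeR adjusted p = 7.75e-05). Relative to the chromosome's median it stood at -0.16 (adjusted p = 0.101). GCN1, the partner of the kinase that senses uncharged tRNA, fell by 0.28 ± 0.071 (adjusted p = 0.0123). The kinase gene EIF2AK4 was at 0.030 (adjusted p = 0.778).

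The next list holds factors that work beside the synthetases. Of 39 tested genes of tRNA maturation, editing, export and delivery, 6 rose (15.4%), 3 fell (7.69%) and 30 did not pass, with a median of 0.064. The share that rose was near the 12.7% of all tested genes, of which 18.0% fell. The higher genes were EEFSEC, the elongation factor for selenocysteine (0.42), SECISBP2, which acts in the same step (0.35), TRNT1, which adds the CCA end of tRNA (0.34), NSUN2, a tRNA methyltransferase (0.29), POP5 (0.29) and ELAC2 (0.27), which trim tRNA precursors. The lower genes were QRSL1, a subunit of the mitochondrial amidotransferase that makes glutaminyl-tRNA (-0.43), XPO5, an export receptor (-0.42), and EEF1A1, which brings charged tRNA to the ribosome (-0.40). All 3 are on chromosome 3 and stood at 0.024, 0.032 and 0.056 relative to its median (edgeR adjusted p = 0.903, 0.741 and 0.606). EEF1A1 is known to have near-identical copies in mammalian genomes, and whether such copies affect its counts here was not tested. EEF1E1, a further subunit of the multisynthetase complex, was at 0.20 ± 0.080 (adjusted p = 0.0843).

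Of 24 tested factors of mitochondrial translation, 3 rose (12.5%), 5 fell (20.8%) and 16 did not pass, with a median of 0.039. Both shares were near those of all tested genes, 12.7% and 18.0%. The higher genes were TRNT1 and ELAC2, which also stand in the list above, and MRRF, the mitochondrial ribosome recycling factor (0.30). The lower genes were MTO1, which modifies mitochondrial tRNA (-0.74), MTRF1L, a release factor (-0.48), QRSL1, LRPPRC, which stabilises mitochondrial mRNA (-0.39), and TFB1M, an rRNA methyltransferase (-0.39). All 5 are on chromosome 3. Relative to its median MTO1 stood at -0.29 (edgeR adjusted p = 0.0270), and the other 4 lay between -0.031 and 0.066 with no adjusted p under 0.595. On the same scale MTIF2, a mitochondrial initiation factor, stood above the median at 0.28 (adjusted p = 0.0398), as did TRMT6 of the preceding list, a subunit of a tRNA methyltransferase, at 0.35 (adjusted p = 0.0391). Neither passed in the fit without the offset (adjusted p = 0.169 and 0.517). Of the genes named from these lists of factors, TRNT1, QRSL1, ELAC2, POP5, SECISBP2 and MRRF lost their calls without at least 1 library, with an adjusted p of up to 0.0567, 0.0882, 0.0664, 0.121, 0.158 and 0.102. GCN1 also did (up to 0.0704).

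**Figure D5:**
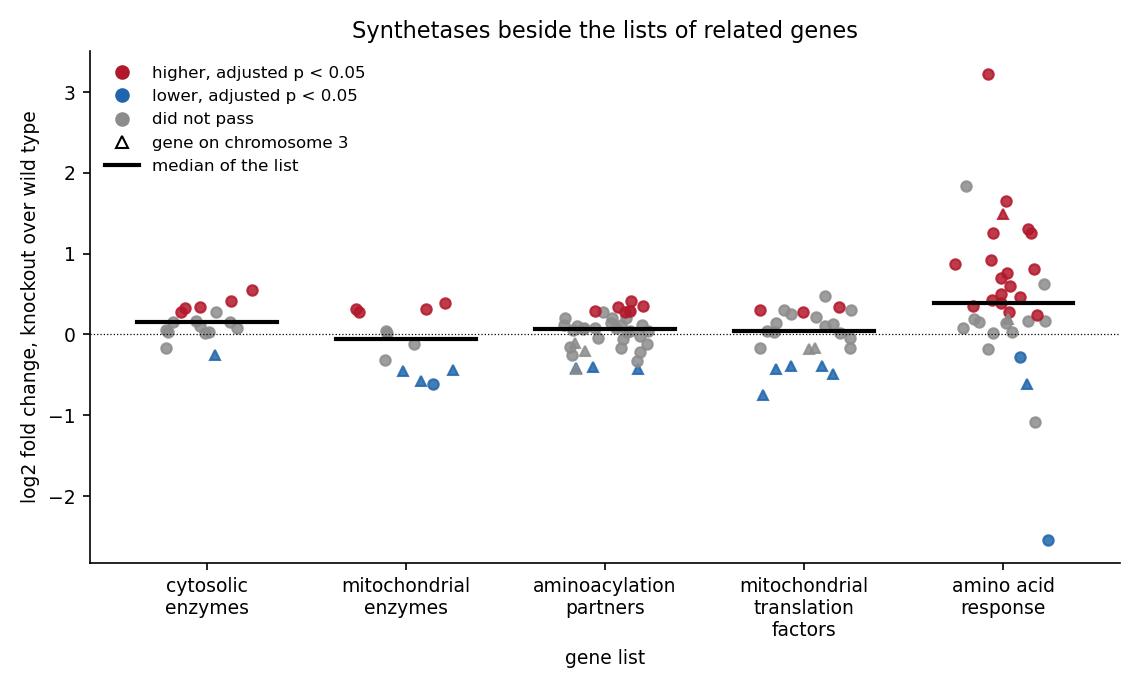
Log2 fold change, knockout over wild type, of each tested gene in the cytosolic enzymes (17), the mitochondrial enzymes (12) and the lists of aminoacylation partners (39), mitochondrial translation factors (24) and the amino acid response (35); colours mark calls, triangles genes on chromosome 3, and black bars medians. The median of the amino acid response list is at 0.39 and that of the cytosolic enzymes at 0.15, while those of the other 3 lie between -0.053 and 0.064.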

How the data were processed

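Total RNA of 3 wild type and 3 Bach2 knockout cultures of DT40 cells was made into libraries from 100 ng each, per the labels' protocols. The authors deposited raw counts per gene in 1 table and, in the other, values read as RPKM. Dividing count by value gave ratios between libraries that were constant over genes. Such ratios cannot tell RPKM from another scaling by gene and library. They were close to the ratios of total counts but not equal to them, as for knockout replicate 2 over wild type replicate 1 (0.871 against 0.861). The tools and build listed, per the submitters' processing notes, are galGal4, Subread 1.5.0, TopHat2 2.1.0, bcl2fastq 1.8.4, limma and edgeR. Their roles, the annotation, gene lengths and strand setting are not given in the sources used here, so reads of overlapping genes cannot be told apart. Columns were matched to samples by name, and groups and replicate numbers came from the titles. P-values set the difference between the genotypes against the spread between these cultures. Whether that spread includes one between knockout clones is not stated in the labels.

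Counts were tested in R 4.3.3 with edgeR 4.0.16: filterByExpr (9159 genes kept), TMM scaling, a model of genotype alone over the 6 libraries (glmQLFit, glmQLFTest), two-sided, Benjamini-Hochberg adjusted over all tested genes, threshold 0.05. The SE is the absolute log2 fold change over the square root of F. The fit was checked on simulated counts. CPM are counts over TMM-scaled totals. The alternatives were RLE scaling, library totals, no filter, a mean of at least 1 RPKM, DESeq2 1.42.0, limma 3.58.1 on log2(RPKM + 1) and log2(RPKM + 0.1), the replicate number as a block, and leaving out each library; genes on chromosome 3 were also fitted with that chromosome's median as an offset. Ratios of paired genes were compared with SciPy's exact permutation test. Chromosomes came from a GRCg7b gene table, matched by NCBI gene identifier.

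The members and lists were chosen with earlier results of these data known. The genes named are BACH2, all members, and up to 6 genes past the threshold in each direction from each list of related genes; other names were chosen after values were seen.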

Additional observations from a re-analysis of the deposited data

How the results depend on the processing

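Of 438 recomputed log2 fold changes of members, 384 kept their direction and side of the threshold and 9 changed sign. Of those that kept their direction, 35 lost the call and 10 gained it. Of 16 called members 6 kept the call in all 14 alternatives that apply to every gene (WARS, TARS, TARS2, AARS2, IARS2 and RARS2). Among them AARS2, IARS2 and RARS2 did not pass with the median of chromosome 3 as an offset (edgeR adjusted p = 0.493, 0.951 and 0.995). The sign changed for members near 0 that were not called: LARS (-0.019), QARS (-0.023) and MARS2 (-0.032) without wild type replicate 1, MARS2 (-0.067) without wild type replicate 3, and HARS (-0.055) and QARS (-0.11) without knockout replicate 3. With 1 library left out these 4 ran from -0.019 to 0.059 (LARS), -0.11 to 0.21 (QARS), -0.067 to 0.15 (MARS2) and -0.055 to 0.13 (HARS). With the median of chromosome 3 as an offset it changed for EPRS (0.19), IARS2 (0.0075) and RARS2 (0.0012), which also lost their calls there.

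With 1 library left out, 2 to 9 cytosolic enzymes were higher and 0 to 2 lower, 0 to 4 mitochondrial enzymes were higher and 4 to 5 lower, and 639 to 1483 of all genes were higher, against 1163, and 1177 to 1953 lower, against 1647. The cytosolic median ran from 0.091 to 0.17 and the mitochondrial median from -0.12 to 0.010. Lower cytosolic enzymes numbered 2 when genes averaging under 1 RPKM were left out and 0 with limma at either pseudocount. Same-numbered libraries deviated together little (correlations 0.0036, 0.093 and -0.021 across genes for replicates 1, 2 and 3). A correlation over all tested genes cannot settle whether the numbers pair the samples, since a shared effect on fewer genes would barely change it. With the replicate block 4 cytosolic enzymes were higher and 0 lower, since CARS (adjusted p = 0.0566) and EPRS (0.0501) lost their calls, and 4 mitochondrial enzymes were higher and 4 lower. The lowest count of a tested member was 133, and the part of depth in the members that did not pass was not tested.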
